A study of Mus musculus with 11 samples.

Results

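The 10 genes described here encode proteins by which extracellular vesicles (EVs, small membrane sacs shed by cells) are recognised, as they are transcribed by the muscle itself. They are the tetraspanins Cd9, Cd63, Cd81, Cd82 and Cd151 and the marker genes Tsg101, Pdcd6ip, Sdcbp, Hgs and Flot1. They were chosen by name from a list of tetraspanins and vesicle marker proteins, and all 10 were found among the 18269 genes of the deposited expression table. The measurements are RNA sequencing of whole tibialis anterior, the muscle at the front of the lower leg, whose fibres are mainly fast. The mice whose muscle was sequenced were C57BL/6, 21 to 24 months old, and the labels point to an injury model. The mice had been injected with young serum depleted of EVs (3 libraries, replicates 2, 3 and 4), with young serum (4 libraries, replicates 1 to 4) or with saline (4 libraries, replicates 2, 3, 4 and 6). Age, strain and tissue are the same in all groups, and no transgene is named. The labels do not say that each library came from its own animal, and each p-value therefore reflects only how far these libraries scatter, which may in part be technical.

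Tetraspanins are small multi-pass membrane proteins that gather integrins, immunoglobulin-domain proteins and receptors into membrane patches, and several of them are enriched in vesicles. Exosomes are the vesicles that form inside late endosomes, called multivesicular bodies, and are released when these fuse with the plasma membrane. Hgs (HRS) captures ubiquitinated cargo as part of ESCRT-0, Tsg101 is a subunit of ESCRT-I, Pdcd6ip (ALIX) links to ESCRT-III, and Sdcbp (syntenin) ties syndecans to ALIX. Flot1 (flotillin-1) scaffolds cholesterol-rich membrane and often copurifies with vesicles. The RNA of these genes reports what the cells of the muscle express and not the number of vesicles in the injected serum or in the tissue.

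The letters below are promoter windows for 3 tetraspanins whose levels varied together and for Tsg101 and Pdcd6ip. Tsg101 varied along with Cd63, Cd81 and Cd151 (Pearson r = 0.92, 0.77 and 0.695 across libraries) but over a smaller range. Pdcd6ip differed from them in the direction of its mean difference from saline. Each line is the RefSeq window of GRCm38.p6 from 250 bases before to 50 bases after a transcription start, 300 bases written 5′ to 3′ on the strand of the gene. Capitals mark the GC box (GGGCGG, or CCGCCC on the other strand), the CCAAT box (CCAAT, or ATTGG) and the E-box CACGTG, which reads the same on both strands.
Cd63, chr10:128909095-128909394, plus strand: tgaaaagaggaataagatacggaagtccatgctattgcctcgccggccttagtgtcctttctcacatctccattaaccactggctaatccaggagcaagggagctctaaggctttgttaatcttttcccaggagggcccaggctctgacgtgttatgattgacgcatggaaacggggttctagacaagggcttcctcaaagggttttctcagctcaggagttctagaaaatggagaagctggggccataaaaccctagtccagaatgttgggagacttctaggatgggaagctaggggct
Cd81, chr7:143052500-143052799, plus strand: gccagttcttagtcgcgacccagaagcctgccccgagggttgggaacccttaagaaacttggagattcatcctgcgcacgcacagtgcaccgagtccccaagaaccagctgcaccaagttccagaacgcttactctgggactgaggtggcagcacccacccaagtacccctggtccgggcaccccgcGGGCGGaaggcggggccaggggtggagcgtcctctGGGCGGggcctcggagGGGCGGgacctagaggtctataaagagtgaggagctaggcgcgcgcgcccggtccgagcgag
Cd151, chr7:141467112-141467411, plus strand: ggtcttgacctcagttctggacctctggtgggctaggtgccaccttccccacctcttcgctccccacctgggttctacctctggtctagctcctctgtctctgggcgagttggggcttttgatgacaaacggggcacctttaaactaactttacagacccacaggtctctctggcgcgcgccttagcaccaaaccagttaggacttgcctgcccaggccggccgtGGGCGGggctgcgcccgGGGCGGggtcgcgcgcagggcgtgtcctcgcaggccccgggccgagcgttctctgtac
Tsg101, chr7:46919920-46920219, minus strand: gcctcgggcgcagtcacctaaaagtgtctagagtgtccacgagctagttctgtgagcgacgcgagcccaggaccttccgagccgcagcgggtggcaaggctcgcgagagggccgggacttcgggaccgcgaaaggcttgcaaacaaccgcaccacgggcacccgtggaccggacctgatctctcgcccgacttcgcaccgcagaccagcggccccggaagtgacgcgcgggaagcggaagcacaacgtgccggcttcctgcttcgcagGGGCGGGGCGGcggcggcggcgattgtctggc
Pdcd6ip, chr9:113708210-113708509, minus strand: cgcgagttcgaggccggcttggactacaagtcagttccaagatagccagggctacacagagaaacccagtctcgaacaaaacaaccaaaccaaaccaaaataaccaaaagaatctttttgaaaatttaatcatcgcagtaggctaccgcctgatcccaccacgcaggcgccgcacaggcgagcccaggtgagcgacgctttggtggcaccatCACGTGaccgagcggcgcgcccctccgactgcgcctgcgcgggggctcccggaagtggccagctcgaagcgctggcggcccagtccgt
A GC box is present in 35.7% of the 32851 RefSeq promoter windows, a CCAAT box in 37.4% and the E-box in 7.2%. The windows of Cd81, Cd151 and Tsg101 held 3, 2 and 2 GC boxes, of which those of Tsg101 overlap each other. A second Cd151 window, not shown, held 0 GC boxes. The Cd63 window, the 1 at hand for that gene, lies at a start inside the annotated span of the gene and not at its outer end. It held none of the motifs searched, and its GC content was 49.3%, below the median window at 52.7%. The Cd81 window also held a TATA box (TATAAA, or TTTATA), found in 13.6% of windows and left in lower case. The Pdcd6ip window held the E-box and no GC box, and the Hgs window held 4 CCAAT boxes and 1 GC box. Windows were at hand for 8 of the 10 genes, Sdcbp and Flot1 being the others. A match describes letters and is not evidence that a factor binds.

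All 10 are protein-coding genes, and their positions are given on mm10. Cd9 spans chr6:125460266-125494791 on the minus strand, and Cd63 spans chr10:128900989-128912822 on the plus strand. Cd81 spans chr7:143052739-143067934 on the plus strand, and Cd82 spans chr2:93419111-93463140 on the minus strand. Cd151 spans chr7:141467392-141471473 on the plus strand, and Tsg101 spans chr7:46888949-46919969 on the minus strand. Pdcd6ip spans chr9:113651744-113708259 on the minus strand, and Sdcbp spans chr4:6365650-6408423 on the plus strand. Hgs spans chr11:120467635-120483979 on the plus strand, and Flot1 spans chr17:35823230-35832791 on the plus strand. Exons of Cd9, Cd81 and Cd151 share 10.7%, 3.61% and 7.04% of their length with an annotated neighbour (Gm26728, R74862 and Gm10575), and it is not known how reads there were assigned.

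Expression is given as deposited CPM, the reads of a gene per 1000000 reads of its library. The smallest steps between low values put 1 read at 0.0237 to 0.0275 CPM, which sets the depth of each library. The fibre markers fit the labelled muscle: the 10 fast fibre genes summed to 158809 to 184185 CPM with EV-depleted serum, 172216 to 194453 CPM with young serum and 163101 to 219998 CPM with saline. Other cells contributed unequally. The 12 macrophage markers summed to 76.2 to 130.4 CPM with EV-depleted serum, 55.7 to 166 CPM with young serum and 134 to 362 CPM with saline, with saline replicate 4 highest. That library also had 9467 CPM over the 10 adipocyte markers, against 1883 to 3016 CPM in every other library, and 145 CPM over the 9 B and T cell markers. Much of the adipocyte sum in the other libraries was 1 gene, Car3. Its median was 1629 CPM with EV-depleted serum, 1537 CPM with young serum and 1646 CPM with saline. Saline replicate 6 had 30.7 CPM over the B and T cell markers, and the remaining 9 libraries had 2.79 to 5.62 CPM. The 9 slow fibre markers summed to 1538 to 2377 CPM with EV-depleted serum, 270.4 to 1728 CPM with young serum and 277 to 5712 CPM with saline, with saline replicate 6 highest. In whole muscle, fewer cells of a type and less RNA per cell cannot be told apart.

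Across the 11 libraries every one of the 10 genes was expressed, at 10.9 CPM or more. CPM favours long transcripts, so levels were compared between genes per kilobase of annotated exon. On that scale Cd151 was highest with 36.6 ± 7.13 CPM per kilobase (SD, n = 11 libraries), and it exceeded Cd81 in 11 of 11 libraries. Cd81 (27.8 ± 5.89), Cd63 (27.7 ± 4.69) and Flot1 (26.2 ± 2.48 CPM per kilobase) followed and did not differ beyond their spread, Cd81 exceeding Cd63 in 6 libraries and Cd63 exceeding Flot1 in 7. Tsg101 stood at 13.8 ± 1.08 CPM per kilobase, below Flot1 and above Hgs in all 11 libraries. Hgs (8.51 ± 0.98), Cd9 (7.75 ± 1.91), Pdcd6ip (7.30 ± 1.01) and Cd82 (6.15 ± 1.87 CPM per kilobase) came next, and neighbours in this order did not differ beyond their spread: Hgs exceeded Cd9 in 8 libraries, Cd9 exceeded Pdcd6ip in 6 and Pdcd6ip exceeded Cd82 in 7. Sdcbp was lowest at 4.39 ± 0.99 CPM per kilobase, under Cd82 in all 11 libraries. The order depends on the length used: with the principal transcript alone, which is marked for 8 of the 10 genes, Cd63 led with 92.0 CPM per kilobase, before Cd151 with 53.8 and Cd81 with 52.3. Against the 12965 tested genes with an exon length, Cd151 was at the 92.2nd percentile per kilobase and Sdcbp at the 59.5th.

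The comparison of each serum with saline asks whether serum given to an old mouse alters the muscle's own vesicle genes, and the comparison of the sera asks whether removing EVs from the serum matters to them. None of the 10 genes passed the test in any of the 3 comparisons. The mean of each of the 5 tetraspanins was below saline with both sera, with Cd82 at 0.673-fold and 0.716-fold for EV-depleted and young serum, and over all 10 genes EV-depleted against young serum gave 0.911-fold to 1.09-fold. Differences are given on the scale of log2(CPM + 1), tested by limma across the 13187 genes that reached 1 CPM in 3 or more libraries, with Benjamini-Hochberg adjustment at 0.05. All 10 genes passed that filter.

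**Figure D1:**
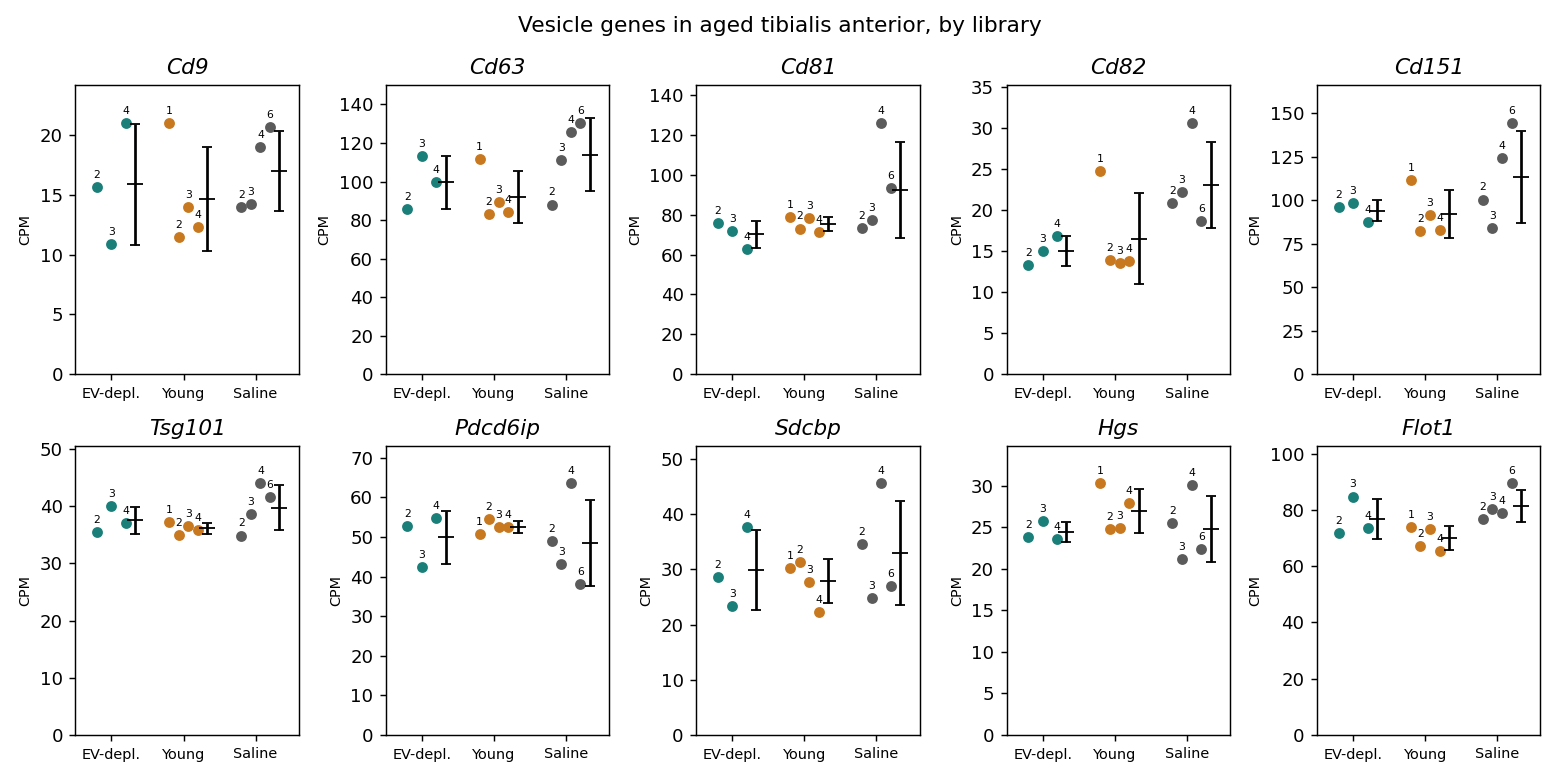
CPM of the 10 vesicle genes in each library, with replicate numbers beside the points, for EV-depleted serum, young serum and saline; the black mark and bar are the group mean and SD. The 3 EV-depleted libraries of Cd82 lie between 13.2 and 16.8 CPM, under all 4 saline libraries at 18.6 to 30.6 CPM, and young serum replicate 1 at 24.7 CPM lies among the saline libraries.

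Cd82 (KAI1), a tetraspanin that restrains cell migration and is found on satellite cells of human muscle, had the largest differences from saline of the 10 genes with both sera. It stood at 13.2, 14.9 and 16.8 CPM with EV-depleted serum, at 24.7, 13.9, 13.6 and 13.8 CPM with young serum, and at 20.8, 22.2, 30.6 and 18.6 CPM with saline. The EV-depleted and saline libraries did not overlap, while young serum replicate 1 stood among the saline libraries and the other 3 young serum libraries below them. The fold was 0.673 for EV-depleted serum against saline (95% interval 0.481 to 0.944) and 0.716 for young serum against saline (0.524 to 0.979). Neither passed by limma, with unadjusted p = 0.0254 and 0.0382 and adjusted p = 0.404 and 0.212. With limma's array weights, which gave saline replicate 4 little weight, both passed, at adjusted p = 0.0350 and 0.0495. The same weights called 1794 and 3441 of all 13187 genes in these comparisons, and their estimate stopped before convergence. Without both saline replicates 4 and 6 the log2 difference from saline was -0.50 with EV-depleted serum, in place of -0.57. With young serum it was -0.41 in place of -0.48. Without young serum replicate 1 the log2 difference of young serum minus saline was -0.68 in place of -0.48, with an adjusted p = 0.297 by limma. Between the sera, the log2 difference of EV-depleted minus young serum was -0.09, and 0.11 without that library. The macrophage markers summed to 166 CPM in young serum replicate 1 and to 55.7 to 118 CPM in the other 3 young serum libraries, and their part in the Cd82 level was not tested.

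Cd81, a partner of the B cell co-receptor and of the fusion-regulating protein Ptgfrn, stood at 75.8, 71.7 and 62.8 CPM with EV-depleted serum and at 78.7, 73.1, 78.3 and 71.3 CPM with young serum. The saline libraries had 73.1, 77.4, 126 and 93.2 CPM. Saline replicates 4 and 6 were the highest of all 11 libraries, and the other 2 saline libraries lay within the range of the sera. The log2 difference from saline was -0.37 ± 0.17 (SE) with EV-depleted serum, with an unadjusted p = 0.0494 and an adjusted p = 0.412 by limma. With young serum it was -0.26 ± 0.15, with an adjusted p = 0.322 by limma. Without saline replicate 4, the library with 145 CPM of B and T cell and 9467 CPM of adipocyte markers, these were -0.21 and -0.10. Without both saline replicates 4 and 6 they were -0.11 and 0.0002. EV-depleted against young serum, Cd81 was 0.929-fold (95% interval 0.722 to 1.20).

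Cd63, the tetraspanin of late endosomes and lysosomes, stood at 85.8, 113 and 99.6 CPM with EV-depleted serum, at 112, 83.2, 89.3 and 84.0 CPM with young serum, and at 88.1, 111, 125 and 131 CPM with saline. The groups overlapped, with saline replicates 4 and 6 above every other library. The fold against saline was 0.880 with EV-depleted serum (95% interval 0.689 to 1.12) and 0.813 with young serum (0.649 to 1.02). Without saline replicates 4 and 6 the log2 differences were -0.0015 and -0.11, in place of -0.18 and -0.30. Cd151, which binds laminin-receptor integrins, stood at 96.2, 98.5 and 87.4 CPM with EV-depleted serum, at 112, 82.6, 91.7 and 82.8 CPM with young serum, and at 100.4, 84.0, 124 and 145 CPM with saline. Its fold against saline was 0.847 (0.649 to 1.11) and 0.826 (0.645 to 1.06) for EV-depleted and young serum, and without both saline replicates 4 and 6 its log2 differences were 0.03 and -0.01.

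Cd9, which like Cd81 acts in cell fusion, varied most within groups. It stood at 15.7, 10.9 and 21.0 CPM with EV-depleted serum, at 21.0, 11.5, 14 and 12.3 CPM with young serum, and at 14, 14.3, 19.0 and 20.7 CPM with saline. The groups overlapped, and the lowest and the highest of all 11 libraries both belong to EV-depleted serum. The fold was 0.922 for EV-depleted serum against saline (95% interval 0.634 to 1.34), 0.861 for young serum against saline (0.609 to 1.22) and 1.07 for EV-depleted against young serum (0.737 to 1.56).

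Among the genes of vesicle formation, Hgs stood at 23.8, 25.8 and 23.6 CPM with EV-depleted serum, at 30.3, 24.8, 24.9 and 27.9 CPM with young serum, and at 25.5, 21.1, 30.1 and 22.4 CPM with saline. The groups overlapped, and the fold was 0.992 (95% interval 0.806 to 1.22) for EV-depleted serum and 1.09 (0.899 to 1.32) for young serum, both against saline. Tsg101 stood at 35.5, 40.0 and 37.1 CPM with EV-depleted serum, at 37.2, 34.9, 36.5 and 35.8 CPM with young serum, and at 34.9, 38.6, 44.0 and 41.5 CPM with saline. It was the steadiest of the 10, its highest library being 1.26 times its lowest. Its fold against saline was 0.947 (95% interval 0.805 to 1.11) with EV-depleted serum and 0.914 (0.786 to 1.06) with young serum, and EV-depleted against young serum gave 1.04 (0.881 to 1.22).

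Pdcd6ip stood at 52.6, 42.3 and 54.9 CPM with EV-depleted serum, at 50.8, 54.5, 52.4 and 52.6 CPM with young serum, and at 49.0, 43.3, 63.5 and 38.2 CPM with saline. The young serum libraries were close together, with a coefficient of variation of 2.84%, against 22.6% with saline, where both the highest and the lowest of all libraries lay. Such a contrast was not particular to Pdcd6ip. Over all genes tested the median SD of log2(CPM + 1) was 0.149 with young serum and 0.305 with saline. Sdcbp stood at 28.6, 23.4 and 37.7 CPM with EV-depleted serum, at 30.3, 31.4, 27.6 and 22.3 CPM with young serum, and at 34.6, 24.8, 45.6 and 27.0 CPM with saline. Its groups overlapped widely, and EV-depleted against young serum gave 1.06-fold (95% interval 0.758 to 1.48). Sdcbp shares 78 exon bases, 1.13% of its exon length, with Nsmaf on the opposite strand, and it is not known whether counting used strand.

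Flot1 was the 1 gene of the 10 whose young serum libraries all lay below saline. It stood at 71.8, 84.8 and 73.5 CPM with EV-depleted serum, at 74.1, 67.1, 73.1 and 65.3 CPM with young serum, and at 76.8, 80.5, 78.9 and 89.4 CPM with saline. The fold of young serum against saline was 0.861 (95% interval 0.743 to 0.996), with an unadjusted p = 0.0454 and an adjusted p = 0.221 by limma. EV-depleted serum overlapped young serum through replicates 2 and 4 and saline through replicate 3 at 84.8 CPM, and its fold against saline was 0.942 (0.804 to 1.10).

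**Figure D2:**
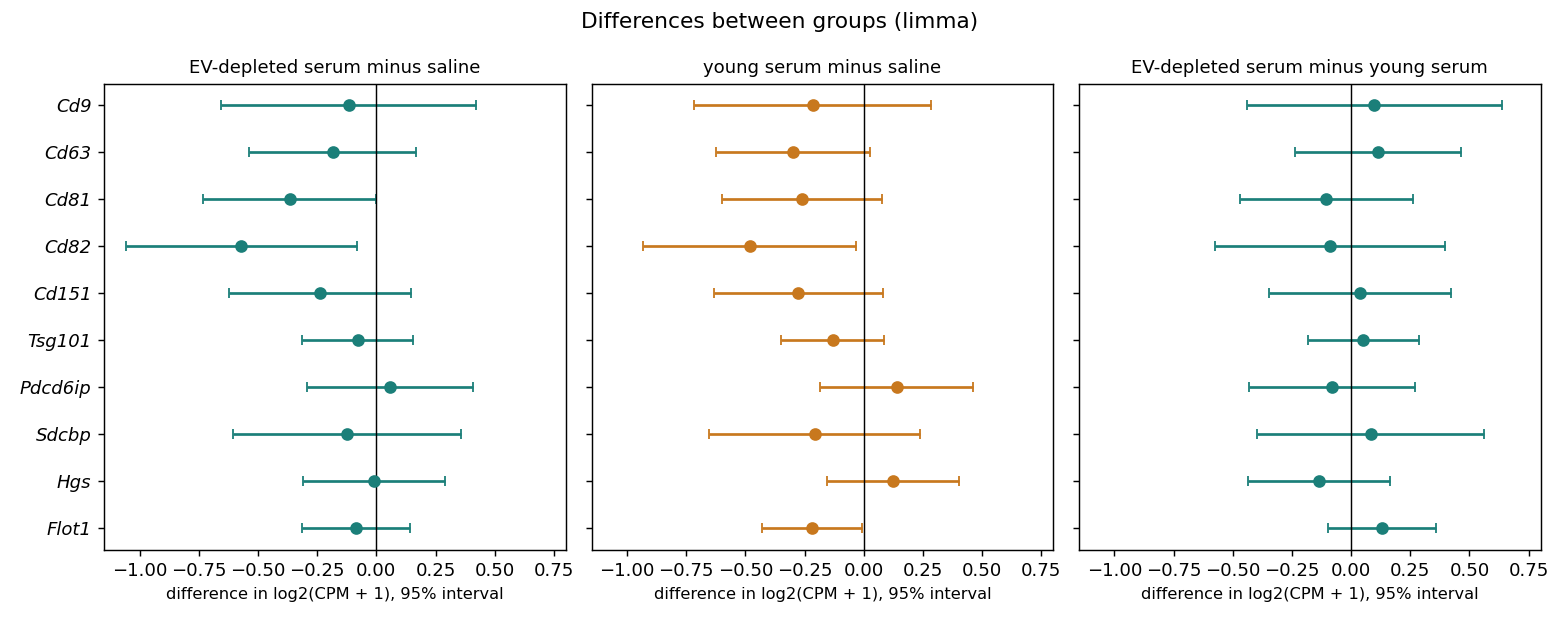
Difference in log2(CPM + 1) of each gene with its 95% interval (limma), for EV-depleted serum minus saline, young serum minus saline and EV-depleted minus young serum. Cd82 lies lowest in both comparisons with saline, at -0.57 and -0.48, and every interval of the sera against each other spans 0.

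Counted over the 10 genes, 0 were called in each comparison, as were 0 of all 13187 genes tested by limma (0% in each). For EV-depleted serum minus saline, 9 of 10 log2 differences were below 0, with a median of -0.12, where 50.4% of all genes were below 0 and their median was 0.00. At an unadjusted p under 0.05, 2 genes were lower (Cd81 and Cd82) and 0 higher, beside 5.59% of all genes lower and 6.49% higher, 12.1% in all. Cd82 was the 1 gene whose groups did not overlap, beside 4.03% of all genes lower and 3.39% higher without overlap. For young serum minus saline, 8 of 10 were below 0, with a median of -0.22, where 52.5% of all genes were below 0 and their median was -0.02. At an unadjusted p under 0.05, 2 were lower (Cd82 and Flot1) and 0 higher, beside 11.4% of all genes lower and 10.5% higher, 21.9% in all. Flot1 was the 1 without overlap, beside 6.08% of all genes lower and 6.09% higher without overlap. These comparisons share their saline libraries. Without both saline replicates 4 and 6, 0 of the 10 had an unadjusted p under 0.05 in either, where 7.03% of all genes did for EV-depleted serum minus saline and 9.68% for young serum minus saline. With fewer saline libraries a low p is harder to reach. The log2 differences of Cd82 were then -0.50 and -0.41, and that of Flot1 for young serum minus saline was -0.17. That of Cd81 for EV-depleted serum minus saline was -0.11. For EV-depleted minus young serum, 6 of 10 were above 0 and 4 below, with a median of 0.04 and differences from -0.14 to 0.13. There 0 of the 10 had an unadjusted p under 0.05, beside 2.23% of all genes (1.75% higher and 0.478% lower), and 48.7% of all genes were below 0. The groups of all 10 overlapped, where 4.16% of all genes were higher and 1.96% lower without overlap. Of all 13187 genes, an unadjusted p under 0.05 by limma was reached by 1593 for EV-depleted serum minus saline, 2890 for young serum minus saline and 294 for EV-depleted minus young serum. The fit pooled the spread of all groups, which was unequal. The median gene had an SD of log2(CPM + 1) of 0.305 with saline, 0.223 with EV-depleted serum and 0.149 with young serum. With the sera fitted alone, 634 genes and 0 of the 10 had an unadjusted p under 0.05 by limma. The low share between the sera is therefore no measure of their likeness.

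Within groups the 10 genes fell apart by spread. The within-group SD of log2(CPM + 1) was 0.10 for Tsg101 and 0.10 for Flot1, at the 3.15th and 3.53rd percentile of all genes tested, where the median gene had 0.26. Hgs followed with 0.16. Pdcd6ip (0.21), Cd63 (0.22), Cd81 (0.23) and Cd151 (0.25) lay nearer the median gene, and Cd82 (0.32), Sdcbp (0.32) and Cd9 (0.36) above it.

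**Figure D3:**
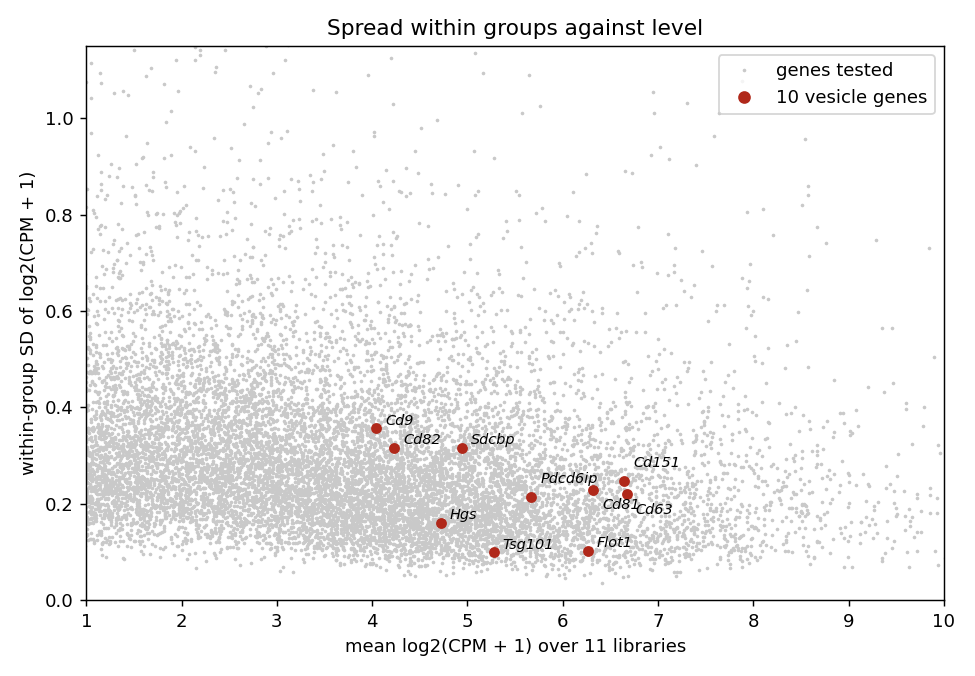
Within-group SD of log2(CPM + 1) against the mean over 11 libraries, for the genes tested (grey; genes outside the plotted ranges are left out of view) and the 10 vesicle genes (red). Tsg101 and Flot1, at 0.10 each, lie at the lower edge of the cloud and Cd9, at 0.36, in its upper part.

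The libraries were not equally rich in these transcripts. Summed over the 10 genes, the level was 499 to 526 CPM with EV-depleted serum, 468 to 571 CPM with young serum and 517 to 688 CPM with saline. Saline replicate 4 was the highest of all 11 libraries for 5 genes (Cd81, Cd82, Tsg101, Pdcd6ip and Sdcbp) and saline replicate 6 for 3 (Cd63, Cd151 and Flot1). Young serum replicate 1 was highest for Hgs and led its group also for Cd9, Cd63, Cd81, Cd82, Cd151, Tsg101 and Flot1. Between genes, all 10 pairs of tetraspanins were positively correlated across the 11 libraries, with Pearson r from 0.36 to 0.75 and a median of 0.61. The closest pair of all 45 was Cd63 with Tsg101 (r = 0.92, Spearman rho = 0.92), and Cd63 with Flot1 followed (r = 0.83, rho = 0.88). Pdcd6ip ran against Flot1 (r = -0.66, rho = -0.63). These values describe 11 libraries that share 3 treatments and a common scaling.

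**Figure D4:**
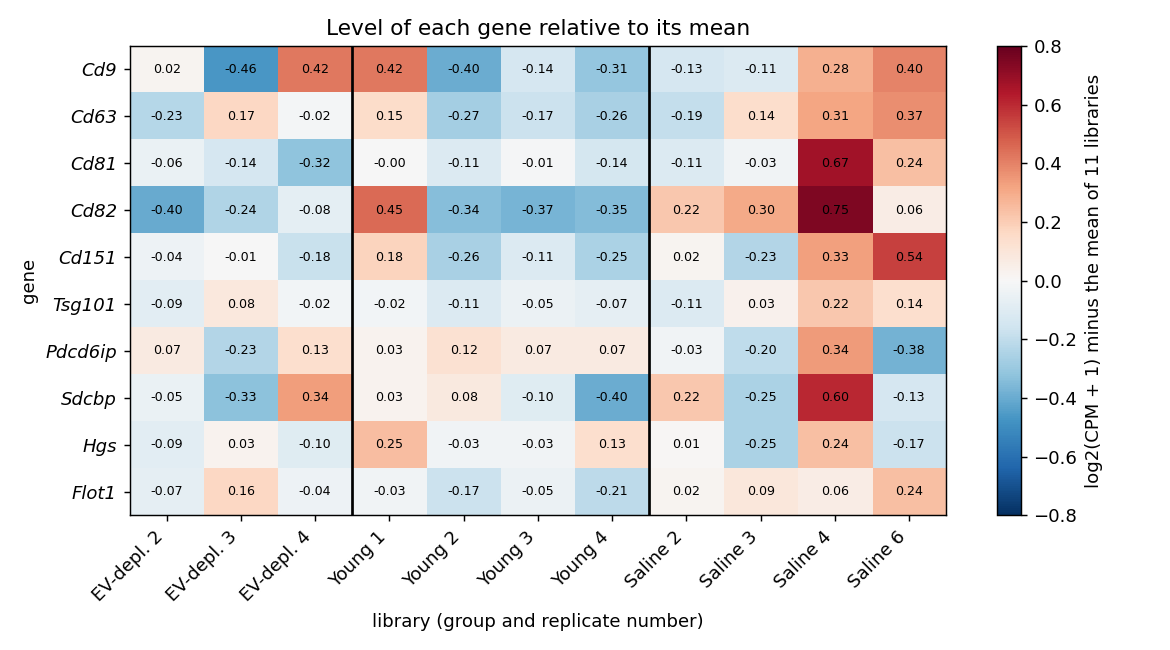
Level of each gene in each library as log2(CPM + 1) minus its mean over the 11 libraries, with EV-depleted serum, young serum and saline from left to right. Saline replicate 4 is above the mean for all 10 genes, with Cd82 at 0.75 and Cd81 at 0.67.

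Several of the genes moved with markers of other cells, and a selection of the pairs of gene and marker list is given. Cd82 followed the macrophage marker score (the mean centred log2 level of the list) with r = 0.82 and rho = 0.80 over 11 libraries, and r = 0.67 without the 2 libraries farthest from the median score. Its r with the platelet score was 0.81 (rho = 0.79), and 0.845 over 9 libraries. That score rests on 5 genes of low level, 3 of which passed the filter, summing to 4.45 to 21.3 CPM per library. Cd81 followed the macrophage score with r = 0.81 and rho = 0.72, and r = 0.51 over 9 libraries. It followed the adipocyte and platelet scores more closely, with r = 0.85 for each, but r was 0.38 and 0.14 over 9 libraries, without saline replicate 4 and 1 other library in each case. Its r of 0.94 with the B and T cell score rested on saline replicates 4 and 6, since it was -0.005 over the other 9 libraries. Cd9 followed the Schwann cell score with r = 0.87 and rho = 0.86, and r = 0.81 over 9 libraries. It also followed the fibro-adipogenic progenitor score, with r = 0.75, and 0.69 over 9 libraries. The same held for the smooth muscle and pericyte score (0.69 and 0.71) and the macrophage score (0.64 and 0.68). Over 11 libraries its r was below 0 only with the fast fibre score, at -0.16. The 8 Schwann cell markers summed to 120.5 to 270 CPM with EV-depleted serum, 89.0 to 210 CPM with young serum and 100.3 to 211 CPM with saline. Pdcd6ip ran against the fast fibre score with r = -0.88 and rho = -0.90, and r = -0.80 over 9 libraries. Cd151 followed the red blood cell score with r = 0.63 (rho = 0.62), and 0.93 over 9 libraries. Cd82 ran against the slow fibre score with r = -0.37 (rho = -0.29), and -0.80 over 9 libraries. Other genes had values of like size over 11 libraries. Sdcbp had r = 0.78 with the adipocyte score, and 0.31 over 9 libraries. Tsg101 had 0.82 with the B and T cell score, and -0.29 over 9. Cd63 had 0.77 with the platelet score, and 0.50 over 9. Flot1 had 0.70 with the fast fibre score, and 0.51 over 9. The part of these cells in the levels was not tested.

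**Figure D5:**
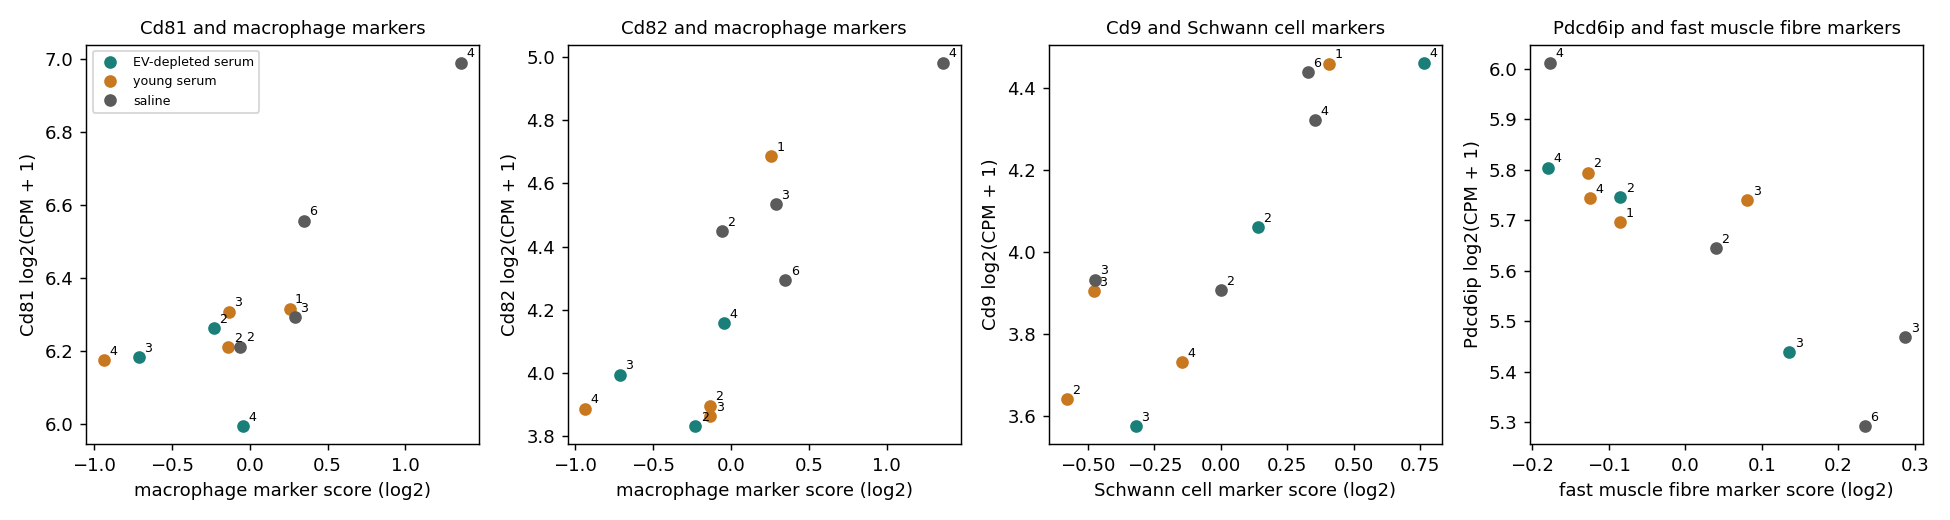
log2(CPM + 1) of Cd81 and Cd82 against the macrophage marker score, of Cd9 against the Schwann cell score and of Pdcd6ip against the fast fibre score, 1 point per library with its replicate number. Saline replicate 4 has the highest macrophage score and the highest Cd81 and Cd82, and Pdcd6ip is lower where the fast fibre score is higher.

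The genes most like each member over the 11 libraries, by Pearson r of log2(CPM + 1) among all genes tested, differed from member to member. Cd9 was nearest to Fap, an activation marker of fibroblasts (r = 0.93), Iqgap2 (0.92) and the myelin gene Pmp22 (0.90), which is also in the Schwann cell list. Cd81 was nearest to Ptms (0.98), the leukocyte integrin gene Itgal (0.97) and Arhgdib (0.97, but rho = 0.68), and Cd82 to Calm2 (0.98), Tmbim1 (0.95) and Ftl1-ps1 (0.92). Cd63 was nearest to Lrrc51 (0.96), Eif4a1 (0.95) and Nufip1 (0.95), and Cd151 to Cbr3 (0.95), Stard3nl (0.93) and Ggh (0.93). Tsg101 was nearest to Rrp36 (0.96), Rpl21 (0.96) and Caml (0.94), Hgs to Ap2a2 (0.93), Tmem79 (0.90) and Ywhag (0.90), and Flot1 to D8Ertd738e (0.96), Mrps18c (0.95) and Mrpl40 (0.95). Pdcd6ip was nearest to Wipf2 (0.99), Elmo2 (0.98) and Dhx9 (0.97), and Sdcbp to the chaperone gene Dnaja1 (0.98), Dpyd (0.96) and Copg2 (0.96). These were picked for the highest r among 13187 genes, leaving out genes with predicted names only, of which 1 was passed over for Sdcbp.

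The surrounding pathway was likewise without a call: 0 genes passed by limma in any comparison in the ESCRT machinery (26 of 27 listed genes tested), vesicle release (23 of 26), other tetraspanin (20 of 26), tetraspanin partner (13 of 15) and other vesicle marker lists (26 of 26). Among ESCRT genes the median log2 difference was 0.02 for EV-depleted serum minus saline, -0.07 for young serum minus saline and 0.07 for EV-depleted minus young serum. The last was below 0 for 4 of 26 genes, where 48.7% of all genes were. Snf8, of ESCRT-II, had the smallest p, averaging 17.0 ± 1.57 CPM with young serum and 24.1 ± 2.65 CPM with saline (SD, n = 4 each), with an adjusted p = 0.180 by limma. Mvb12b, an ESCRT-I subunit, averaged 62.0 ± 5.68 CPM with young serum and 44.4 ± 6.99 CPM with saline, also with an adjusted p = 0.180 by limma. It averaged 54.2 ± 0.63 CPM with EV-depleted serum (adjusted p = 0.412 against saline by limma). Vps25, another ESCRT-II gene, averaged 31.2 ± 0.89 CPM with EV-depleted serum and 38.7 ± 6.17 CPM with saline.

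Among the release genes, Sdc4, a syndecan that syntenin binds, averaged 27.4 ± 4.35 CPM with EV-depleted serum (SD, n = 3), 21.5 ± 2.10 CPM with young serum (SD, n = 4) and 28.7 ± 3.28 CPM with saline (SD, n = 4). Young serum against saline gave 0.759-fold with an adjusted p = 0.180, and EV-depleted against young serum 1.26-fold with an adjusted p of 0.99998, both by limma. Arrdc1, which drives budding of vesicles at the plasma membrane, averaged 3.49 ± 0.45 CPM with EV-depleted serum and 7.86 ± 4.74 CPM with saline. Of the other tetraspanins, Tspan9 averaged 37.7 ± 8.13 CPM with EV-depleted serum and 25.5 ± 4.17 CPM with saline, a 1.45-fold difference with an adjusted p = 0.380 by limma. Cd37, a tetraspanin of B cells, averaged 1.34 ± 0.04 CPM with EV-depleted serum, 1.37 ± 0.55 CPM with young serum and 12.9 ± 19.7 CPM with saline. Among partners, Ifitm3, an interferon-induced membrane protein, averaged 26.8 ± 3.32 CPM with EV-depleted serum, 26.3 ± 6.50 CPM with young serum and 39.0 ± 5.84 CPM with saline. Neither serum overlapped saline, beside 4.03% and 6.08% of all genes lower without overlap for EV-depleted and young serum. The adjusted p of Ifitm3 against saline was 0.404 and 0.180 by limma. Itga7, the laminin receptor chain of muscle, averaged 119 ± 13.2 CPM with EV-depleted serum and 94.2 ± 1.69 CPM with young serum, 1.25-fold without overlap and with an adjusted p of 0.99998 by limma. In that comparison 4.16% of all genes were higher without overlap. Of the other vesicle markers, 21 of 26 were below saline with EV-depleted serum (median -0.34) and 22 of 26 with young serum (median -0.30), where 50.4% and 52.5% of all genes were below 0. Their summed level was 3066 to 3190 CPM with EV-depleted serum, 2907 to 3221 CPM with young serum and 3119 to 3222 CPM in saline replicates 2, 3 and 6, but 4139 CPM in saline replicate 4. Bsg (basigin) had the smallest p among them against saline with both sera, at 491 ± 84.5 CPM with EV-depleted serum, 513 ± 44.2 CPM with young serum and 680 ± 58.9 CPM with saline, with adjusted p = 0.350 and 0.180 against saline by limma.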

How the data were processed

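RNA of 11 tibialis anterior libraries was measured. FastQC, STAR and DESeq2 are listed in the submitters' processing notes, with the build mm10 and no versions. The deposited values are CPM, with an offset of 0.0001 that the zeros of the table show. Whether the scaling to 1000000 covers only the genes of the table was not checked. Within each library the deposited TPM values are proportional to CPM over gene length from start to end with introns (largest coefficient of variation of the ratio 0.000197%). They gave only coordinates. Low CPM values, between 0.01 and 1 CPM, were whole multiples of 1 read within 0.1 reads for 75.6% to 79.0%, which does not suffice to recover counts, and tests for counts were therefore not used. The depth read from the steps of low values was 36.4 to 42.2 (in units of 1000000 reads) per library. Starts of genes matched GENCODE M21 for 99.4% of 17893 symbols.

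Of 18269 genes, the 13187 that reached 1 CPM in 3 or more libraries were tested and 5082 left out. Values were taken as log2(CPM + 1), which understates changes of low genes. A single linear model over the 3 groups was run with limma 3.58.1 under R 4.3.3 (eBayes with a variance trend, two-sided, Benjamini-Hochberg over all genes tested). It was also run on simulated data, in which each gene had the same spread in all groups. In these data the median SD was 0.305 with saline and 0.149 with young serum. The simulation therefore cannot show how the model fares with unequal spread. Lists and scores were described in Python 3.11.15 and had no test of their own; figures used matplotlib 3.10.9. Named genes are all 10 members, the 2 genes of smallest p per list and comparison (a selection of them is given), and the 3 genes most like each member. The members, lists and alternatives were chosen with earlier results of these data known.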

Additional observations from a re-analysis of the deposited data

Results flagged for a closer look

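Cd82 in young serum replicate 1, at 24.7 CPM, lay far from the other young serum libraries at 13.6 to 13.9 CPM, the gap to the nearest being 0.97 of the range of the group. It was the 1 such case among the 20 combinations of a gene with a group of 4 libraries, and chance gives about 1 in 20.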

How the results depend on the processing

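Of 430 recomputed differences of single members, 398 kept their direction and stayed above an adjusted p of 0.05 by limma, 30 changed sign and 2 passed. The 2 were Cd82 with array weights, at -0.65 for EV-depleted serum minus saline and -0.49 for young serum minus saline, so that 1 member was called in each of these comparisons. Part of the 398 could not change direction. A fit without the filter, or on the compared groups alone, leaves each difference as it was. Leaving out saline libraries does the same for EV-depleted minus young serum. The array weights were largest for EV-depleted serum replicate 2, at 4.19, which is the library with the lowest Cd82. Saline replicate 3 had a weight of 3.32 and saline replicate 4 one of 0.208, and the estimate of the weights stopped before convergence. Over all genes the weights called 1794, 3441 and 24 for EV-depleted serum minus saline, young serum minus saline and EV-depleted minus young serum, where the unweighted counts were 0. Leaving out single libraries called 0 to 5, 0 to 251 and 0 genes. The 251 came without saline replicate 2. Leaving out both saline replicates 4 and 6 called 2 for EV-depleted serum minus saline, and the replicate block called 6. The cause of these changes was not tested.

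Sign changes with array weights were, for EV-depleted serum minus saline, Cd9 0.0526, Cd151 0.0749, Sdcbp 0.0881 and Hgs 0.11, and for young serum minus saline Sdcbp 0.06. Without both saline replicates 4 and 6 they were, for EV-depleted serum minus saline, Cd9 0.11, Cd151 0.0318, Tsg101 0.0297, Sdcbp 0.0021 and Hgs 0.0663, and for young serum minus saline Cd9 0.0143 and Cd81 0.0002. With the replicate block, to which saline replicate 6 and young serum replicate 1 add nothing since no other library has their number, they were Pdcd6ip -0.0456 for EV-depleted serum minus saline and Cd82 0.11 for EV-depleted minus young serum. The replicate block changed no call of a member. Replicate numbers recur between groups, but deviations of same-numbered libraries correlated from -0.28 to 0.30, so no pairing was assumed. Leaving out single libraries gave, for EV-depleted serum minus saline, -0.0813 to 0.0829 for Hgs, -0.33 to 0.11 for Cd9, -0.30 to 0.0403 for Sdcbp and -0.0456 to 0.19 for Pdcd6ip. For EV-depleted minus young serum it gave -0.15 to 0.0314 for Pdcd6ip, -0.12 to 0.33 for Cd9, -0.0933 to 0.24 for Sdcbp, -0.17 to 0.11 for Cd82 and -0.0118 to 0.13 for Cd151.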
